A study of Mus musculus with 6 samples.

Results

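Glucose transport and glycolysis were examined through 10 genes: the glucose transporter Slc2a1, the hexokinases Hk1 and Hk2, the phosphofructokinases Pfkp and Pfkl, and Aldoa, Pgk1, Eno1, Pkm and Ldha, which encode later enzymes of the pathway. They were chosen by name as genes of the pathway, with earlier results of these data known, and all 10 are reported whatever their result. A probe belonged to a gene when the transcript accession printed for it in the scanner files mapped to that gene, which gave 15 probes for the 10 genes, of 56605 probes and 23462 named genes on the array. All 10 genes passed the filter on dim probes and were tested among 27104 rows, where a row is 1 named gene or 1 unnamed probe. All 10 were well above background on all 6 arrays.

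Both groups of mice were on a C57BL/6 background, and in both Cre recombinase was made under the control of Ptf1a, a transcription factor of the pancreatic lineage, and switched on an oncogenic allele. The first group, here KC, carried Ptf1aCre and that allele (n = 3). The second, here KCS, carried the same alleles and Setdb1flox/flox, in which both copies of Setdb1, a histone H3 lysine 9 methyltransferase, can be recombined by Cre (n = 3). RNA came from cells that the labels call acinar, the enzyme-secreting cells of the exocrine pancreas, and the study asked how loss of Setdb1 affects the formation of pancreatic tumours. The labels give no age and do not say whether each sample was a separate animal, so the p-values measure the spread between these samples, which may be technical. Ptf1a drives Cre in the pancreatic lineage, so cells of other lineages in a sample would keep Setdb1.

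Glycolysis turns glucose into pyruvate in the cytosol, and lactate dehydrogenase can then reduce pyruvate to lactate, which leaves the cell with a proton. Slc2a1 encodes GLUT1, the widespread carrier that lets glucose into cells. Hexokinase traps glucose by phosphorylation, phosphofructokinase commits it to the pathway, and both steps are covered by several isozymes that differ between tissues. In pancreatic cancer, raised glucose uptake and lactate release are well described, and the hypoxia-inducible factors and Myc are known activators of many of these genes.

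The promoters of 4 of the genes are shown because known activators of glycolysis genes bind short motifs there, and because 3 of these genes rose in KCS (Ldha, Pgk1 and Slc2a1) and 1 (Hk2) did not pass the test. Each sequence is the 250 bases before a RefSeq transcription start of GRCm38.p6, read 5′ to 3′ on the strand of the gene. Capitals mark ACGTG or GCGTG, the core letters of the hypoxia response element, or the same letters read on the other strand, CACGT or CACGC. Where CACGTG stands, the core of the E-box that Myc and ChREBP bind, both strands carry ACGTG.
The first Ldha start lies after chr7:46845554-46845803, the Pgk1 start after chrX:106186850-106187099 and the Slc2a1 start after chr4:119108495-119108744, all on the plus strand. The Hk2 window is chr6:82774455-82774704 on the minus strand.
Ldha: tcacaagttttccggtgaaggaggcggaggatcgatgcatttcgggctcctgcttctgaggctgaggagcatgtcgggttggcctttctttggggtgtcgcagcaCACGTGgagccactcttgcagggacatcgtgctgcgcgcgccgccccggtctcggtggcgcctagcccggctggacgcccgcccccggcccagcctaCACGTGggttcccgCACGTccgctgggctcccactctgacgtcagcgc
Pgk1: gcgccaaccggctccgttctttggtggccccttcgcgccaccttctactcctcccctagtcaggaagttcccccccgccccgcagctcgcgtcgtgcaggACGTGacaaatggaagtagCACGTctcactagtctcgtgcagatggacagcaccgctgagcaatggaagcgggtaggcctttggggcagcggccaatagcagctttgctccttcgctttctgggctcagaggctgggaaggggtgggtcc
Slc2a1: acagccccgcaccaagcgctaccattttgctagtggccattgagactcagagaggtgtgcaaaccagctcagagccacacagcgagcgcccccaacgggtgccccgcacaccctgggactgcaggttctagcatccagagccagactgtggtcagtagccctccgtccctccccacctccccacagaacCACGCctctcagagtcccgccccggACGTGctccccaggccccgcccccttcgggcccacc
Hk2: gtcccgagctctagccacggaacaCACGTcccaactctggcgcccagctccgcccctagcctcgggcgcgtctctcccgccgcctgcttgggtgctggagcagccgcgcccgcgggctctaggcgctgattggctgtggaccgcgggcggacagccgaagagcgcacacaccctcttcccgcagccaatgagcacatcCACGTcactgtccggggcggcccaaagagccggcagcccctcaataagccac

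The Ldha window held 2 copies of CACGTG, first bases at -145 and -48 from the start, and 1 further match at -34. In Pgk1 the 2 matches began at -150 and -131, in Slc2a1 at -61 and -36, and in Hk2 at -226 and -52. RefSeq held 17 start sites for the 10 genes, and in windows from 250 bases before to 50 bases after the start, ACGTG or GCGTG stood on either strand in 14 of the 17 and for 10 of the 10 genes. The same letters stood in 43.8% of all 32851 promoter windows of that length and for 46.7% of all 27025 genes. CACGTG stood in 1 of the 17 windows, that of Ldha, and in 7.15% of all. The windows of the 10 genes had a median GC content of 65%, against 52.7% for all windows, and the part of base composition in these shares was not tested. Both the called genes and Hk2 and Aldoa, which were not called, carried such letters, and a match describes the sequence only.

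In KCS 8 of the 10 genes were higher than in KC and 0 were lower. By the brightest probe, hexokinase 1 rose most, 9.41-fold, followed by the platelet-type phosphofructokinase Pfkp (5.45-fold) and the transporter Slc2a1 (5.30-fold). The other called genes rose from 1.57-fold (Pgk1) to 2.86-fold (Eno1), although second probes of Eno1 and Pkm gave larger rises. Hk2 and Aldoa did not pass the test. Values are log2 signals of 1 probe per gene minus the 75th percentile of the array, fold changes are KCS against KC, and a gene was called at an adjusted p below 0.05 with limma, adjusted over all 27104 rows. By this rule 60.3% of all rows were called, 25.9% higher and 34.4% lower. With limma 0 of the 10 genes were lower also at an unadjusted p below 0.05. The median log2 fold change was 1.02 over the 10 genes and -0.19 over all rows. In 8 genes the 3 KCS arrays lay above the 3 KC arrays without overlap, which held for 29.8% of all rows.

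**Figure D1:**
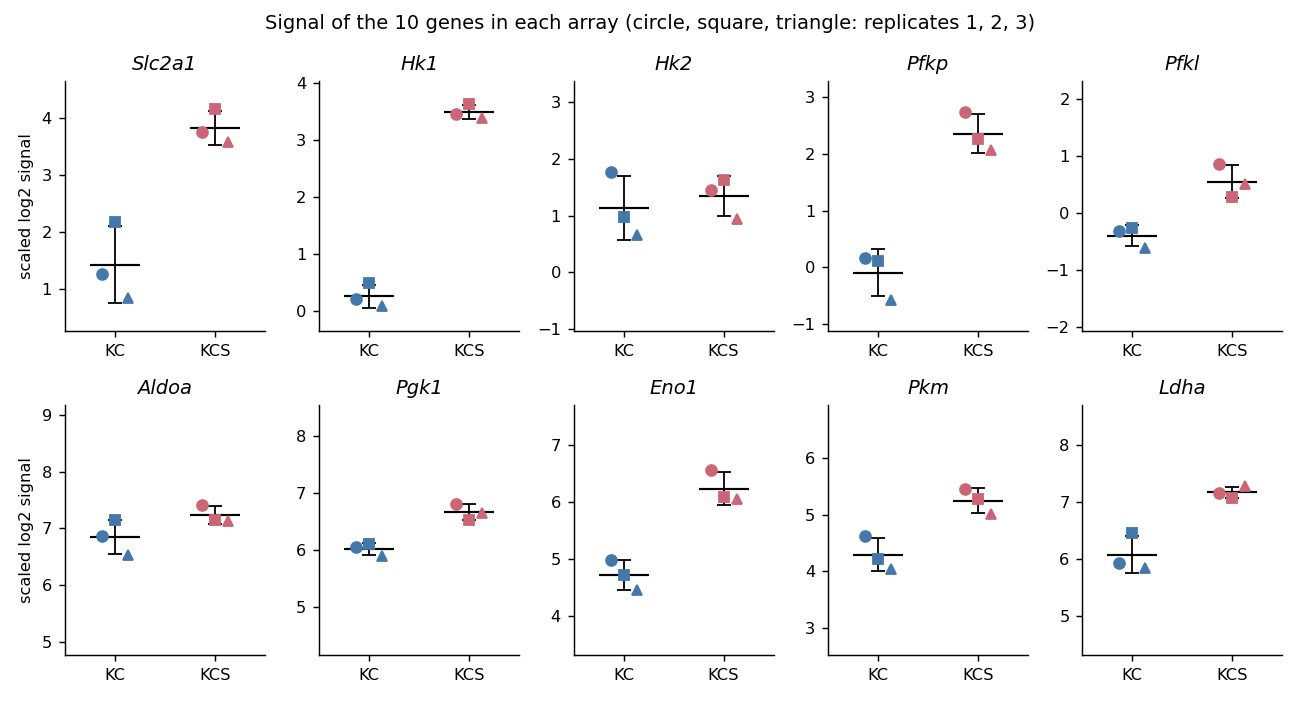
Scaled log2 signal (vertical axis, log2 of the processed signal minus the array's 75th percentile) of the 10 genes in the 3 KC and 3 KCS arrays. Each point is 1 array, with circles, squares and triangles for replicates 1, 2 and 3, horizontal lines are means and error bars are SD. The groups overlap for Hk2 and Aldoa and are apart for the other 8 genes, each panel spanning the same number of log2 units.

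At the step of glucose entry, Slc2a1 had scaled log2 signals of 1.26, 2.18 and 0.84 on the KC arrays and 3.75, 4.17 and 3.58 on the KCS arrays. Every KCS array was above every KC array, and KC replicate 2 was the highest of its group. The difference was 2.41 ± 0.37 (SE, n = 3 per group) on the log2 scale with a limma adjusted p of 0.0019. It was 2.50 on the first slide, which held replicate 1 of both groups, and 2.36 on the second, which held the others.

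The 2 hexokinases did not change alike. Hk1, the form of most tissues, had signals of 0.20, 0.49 and 0.09 in KC and 3.46, 3.63 and 3.39 in KCS. The groups were far apart and each was tight, with an SD of 0.20 in KC and 0.12 in KCS. The rise was 3.23 ± 0.19 (limma adjusted p = 9.69e-05), larger than in 95.9% of all rows. Hk2, the insulin-regulated form that many tumours raise, had signals of 1.77, 0.97 and 0.66 in KC and 1.44, 1.62 and 0.95 in KCS. Its groups overlapped, and KC replicate 1 was the highest of the 6 arrays. The fitted difference was 0.20 ± 0.34 (limma adjusted p = 0.625), and it was -0.32 on the first slide, 0.47 on the second and -0.03 without KC replicate 3. Within each array the log2 ratio of Hk1 to Hk2 was higher by 3.03 in KCS, with an SD of 0.60 in KC and 0.25 in KCS and no overlap. Scaling by 1 value per array cannot move this ratio, but quantile normalization and normexp can.

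Both phosphofructokinase genes of the set rose, Pfkp more than the liver-type Pfkl. Pfkp had signals of 0.17, 0.11 and -0.57 in KC and 2.73, 2.25 and 2.07 in KCS, a rise of 2.45 ± 0.29 (limma adjusted p = 0.000655). For Pfkl the KC arrays gave -0.32, -0.26 and -0.61 and the KCS arrays 0.86, 0.29 and 0.51, a rise of 0.95 ± 0.22 (limma adjusted p = 0.00955). Neither gene overlapped between groups, and replicate 1 was the highest of the KCS arrays for both. The within-array log2 ratio of Pfkp to Pfkl was higher by 1.50 in KCS (SD 0.23 in KC and 0.22 in KCS), without overlap. The muscle-type Pfkm, which is not among the 10 genes, had signals of 1.67, 1.53 and 1.31 in KC and 1.16, 1.06 and 0.91 in KCS, with an adjusted p of 0.0669 in limma.

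Aldoa, the aldolase of most tissues, which splits the doubly phosphorylated sugar, gave 6.87, 7.14 and 6.54 in KC and 7.41, 7.15 and 7.12 in KCS. KC replicate 2 reached above KCS replicate 3, so the groups overlapped. The difference of 0.38 ± 0.22 did not pass (limma adjusted p = 0.175), but with each array scaled to its median it was 0.73 (0.0345) and with quantile normalization 1.52 (0.00101). Pgk1, an ATP-forming kinase of the pathway, gave 6.05, 6.10 and 5.90 in KC and 6.81, 6.53 and 6.66 in KCS. All KCS arrays were above all KC arrays, and both groups were tight (SD 0.10 in KC and 0.14 in KCS). The rise was 0.65 ± 0.17 (limma adjusted p = 0.016). The call was lost without KCS replicate 1 (0.58, adjusted p = 0.055) and within the second slide alone (0.60, adjusted p = 0.0815).

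Eno1, the enolase of most tissues, had signals of 4.99, 4.72 and 4.46 in KC and 6.57, 6.08 and 6.06 in KCS. The lowest KCS array was more than 1 log2 unit above the highest KC array, and the rise was 1.52 ± 0.23 (limma adjusted p = 0.00191). The array also carried probes for Eno1b, a near-identical copy, and the within-array ratio of the 2 genes differed by 0.01 between groups, so their signals cannot be told apart.

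Genes of the last steps, to pyruvate and lactate, also rose. Pkm, the pyruvate kinase of most tissues other than liver and red cells, gave 4.62, 4.21 and 4.05 in KC and 5.45, 5.27 and 5.01 in KCS. The groups did not overlap, and the rise was 0.95 ± 0.23 (limma adjusted p = 0.0109). The labels of its probes do not say which of its splice forms they read. Ldha, which encodes the lactate-forming subunit of lactate dehydrogenase, gave 5.93, 6.45 and 5.84 in KC and 7.16, 7.07 and 7.28 in KCS. Its KCS arrays were close together (SD 0.10) and above all KC arrays (SD 0.33), and the rise was 1.09 ± 0.22 (limma adjusted p = 0.00542). Ldhb, the other main subunit, rose by 1.11 ± 0.27 (limma adjusted p = 0.0115), which on the second slide by itself was 0.91 and not called (adjusted p = 0.0646). The within-array ratio of Ldha to Ldhb differed by -0.02 between the groups, which overlapped (SD 0.49 in KC and 0.54 in KCS).

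Scaling sets how large these values are. In scanner units the 75th percentile of an array ranged from 61.2 to 68.6 in KC and from 347 to 423 in KCS, while the brightest 100 probes held 34.4% to 37.4% of a KC array's signal and 13.4% to 14.6% of a KCS array's. With median scaling the median log2 fold change of all rows was 0.16 and 9 of the 10 genes were called higher, where 33.8% of all rows were higher and 26% lower. With the arrays scaled to the spike-in controls the median of all rows was 2.69 and 10 were called higher, where 87.2% of rows were higher and 2.91% lower. Quantile normalization and normexp background correction each gave 9, where 29.1% and 25.1% of all rows were higher. At a threshold of 0.01 the count was 6, where 18.4% of rows were higher, and within the second slide alone it was 7, where 20.9% were. The median of all rows thus moved by far more than 0.1, so each gene was also set against it. On the percentile scale the 10 genes lay 0.40 (Hk2) to 3.43 (Hk1) above the median of all rows, and they lay above it under each scaling tried. Fewer cells of a type and less RNA per cell cannot be told apart in such bulk samples.

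Of the 10 genes 5 had a second probe. For Pfkp, Eno1, Pkm and Ldha both probes were well above background on all arrays and both were called higher. In all, 12 of the 14 probes tested were called higher, in a fit of every probe. That fit called 20373 of 34487 probes in either direction. The second probes gave 2.18 ± 0.21 for Pfkp and 1.21 ± 0.21 for Ldha, close to the first. For Eno1 (2.51 ± 0.18 against 1.52 ± 0.23) and Pkm (2.28 ± 0.17 against 0.95 ± 0.23) the second probe gave the larger rise. The second Hk1 probe was well above background on 1 KC and 1 KCS array and was not tested. Gapdh, the enzyme between aldolase and Pgk1 and a common reference gene, had 6 probes, of which 5 were higher in KCS by 1.50, 2.02, 2.24, 2.47 and 2.52. The sixth, the brightest and so the one that stood for the gene, was lower by -1.48 ± 0.25 (limma adjusted p = 0.00252). The direction of Gapdh therefore depends on the probe, and it also turned with spike-in scaling (1.40). With quantile normalization the value was 2.33, but there the brightest probe was chosen anew, so scaling and probe cannot be told apart.

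**Figure D2:**
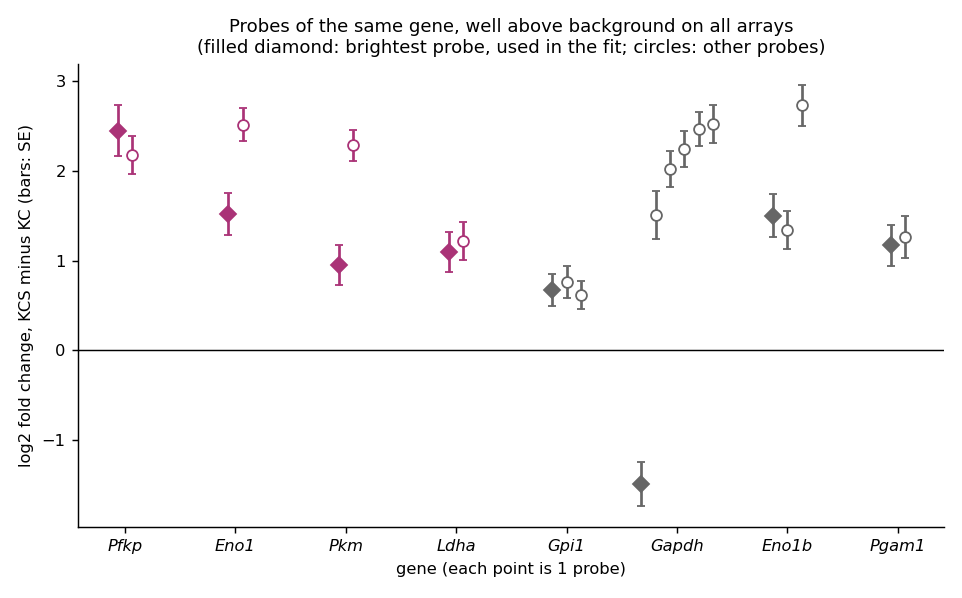
Log2 fold change, KCS minus KC (vertical axis), of each probe that was well above background on all 6 arrays, for genes with several such probes. Each point is 1 probe, bars are SE, the filled diamond is the brightest probe of the gene and purple marks the genes of the set. Both probes of Pfkp, Eno1, Pkm and Ldha lie above 0, while Gapdh has 1 probe at -1.48 and 5 between 1.50 and 2.52.

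The other genes of carbohydrate metabolism, 124 in 11 lists, did not all follow: of the 117 tested, 29 were higher and 39 lower. These counts are near the shares over all rows, 25.9% higher and 34.4% lower, against which each list below is also to be read. With spike-in scaling the counts of the 117 genes became 100 and 3, where 87.2% of all rows were higher and 2.91% lower. Each fall below is thus one relative to the 75th percentile. Among glucose carriers other than Slc2a1, 4 of 10 rose and 4 fell, and their median was -0.02, or 0.17 with dim genes at their bound, a change of sign. Slc2a6, a lysosomal carrier, had signals of -3.48, -1.23 and -2.73 in KC, where 1 array was well above background, and 1.99, 1.75 and 2.07 in KCS, a rise of 4.42 ± 0.55. Slc2a3, the high-affinity GLUT3 of neurons and white blood cells, had 0 KC arrays well above background. Its KCS mean was higher by at least 5.26-fold, a bound that takes for each KC array the dimmest signal that counted as above background, or the probe's own if higher (means of scaled log2 values), and with normexp its call was lost (0.13, adjusted p = 0.578). Slc2a10 rose by 1.09 on the percentile scale and was at -0.060 with normexp, where it was not called (adjusted p = 0.647). Slc5a2, the sodium-coupled carrier of the kidney, fell by 8.69 on the percentile scale and by 5.81 with spike-in scaling. Its KCS signals were -5.02, -7.62 and -3.85 with 2 KCS arrays well above background, so signal near background limits the size of this fall. Slc2a9 and the fructose carrier Slc2a5 fell by 2.21 and 2.10 on the percentile scale and were higher by 0.67 and 0.78 with spike-in scaling.

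Of the other 18 glycolytic enzymes tested, 6 rose and 5 fell, and with spike-in scaling 13 were called higher and 2 lower. Hk3, the hexokinase of myeloid cells, gave -0.03, -0.54 and -0.77 in KC and 2.0, 1.56 and 1.65 in KCS and rose by 2.18 ± 0.25. The others that rose were the neuronal enolase Eno2 (2.71, with 1 KC array well above background), Eno1b (1.50), the mutase Pgam1 (1.17), Ldhb (1.11) and the isomerase Gpi1 (0.68). The muscle mutase Pgam2 (-2.24), Gapdh (-1.48) and the muscle enolase Eno3 (-0.82) fell, all 3 on the percentile scale but not with spike-in scaling. The Gpi1 call was lost without KCS replicate 1 (0.58, adjusted p = 0.0549) and within the second slide (adjusted p = 0.0874). That of Eno3 was lost without any 1 of 5 of the arrays, all but KC replicate 1 (largest adjusted p = 0.109). Eno3 was also not called with median scaling (-0.47, limma adjusted p = 0.174) or normexp (-0.46, limma adjusted p = 0.0573).

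**Figure D3:**
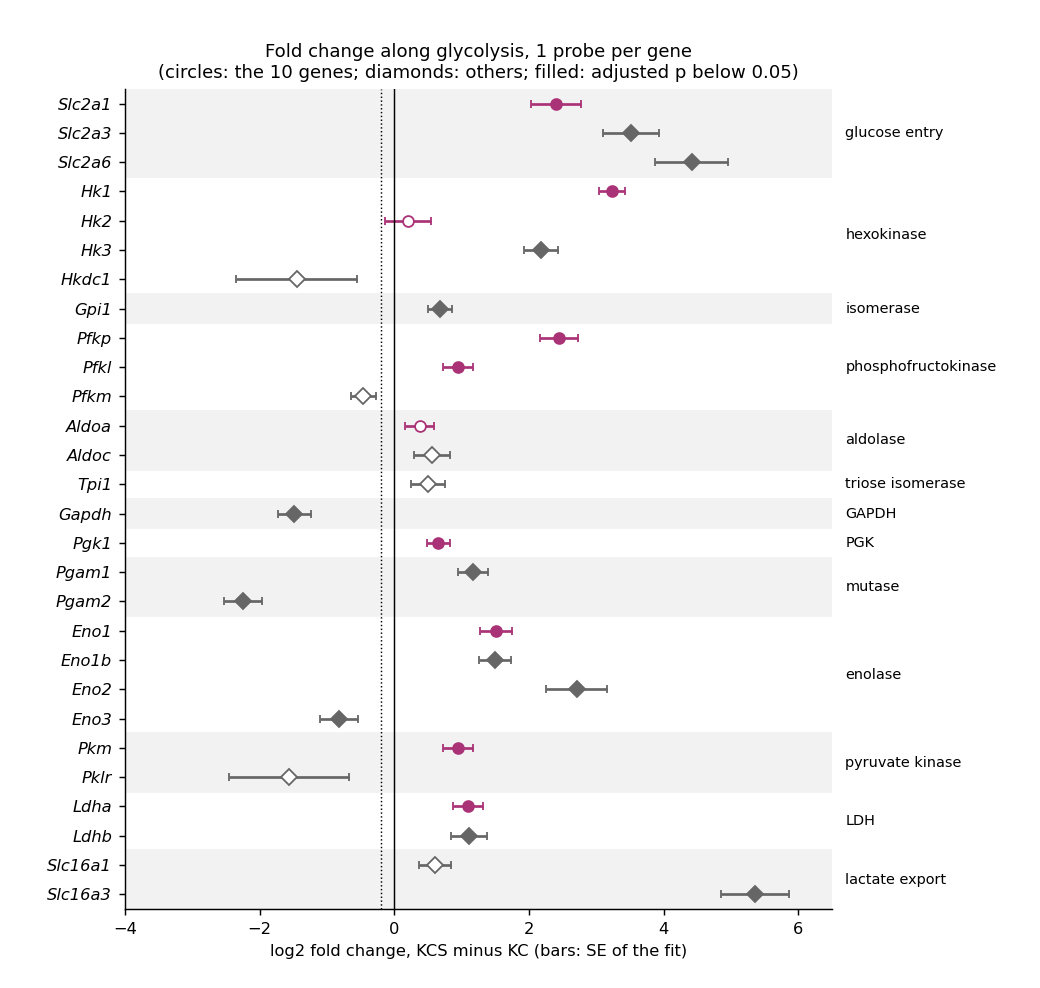
Log2 fold change, KCS minus KC (horizontal axis), of the 10 genes (purple circles) and selected other genes of the same steps (grey diamonds). Genes are ordered from glucose entry to lactate export, and not every gene of these steps is drawn. Left out are, among others, Slc2a10, which rose, and Slc5a2, Slc2a9, Slc2a5 and Slc16a7, which fell on the percentile scale. Bars are the SE of the fit, filled symbols are called in limma, the dotted line is the median of all rows at -0.19, and the value of Slc2a3 is a fitted value of a probe not above background in KC. Among the 10 genes Hk2 (0.20) and Aldoa (0.38) are open symbols. Lower values hold on the percentile scale, and with spike-in scaling Gapdh, Pgam2 and Eno3 are above 0.

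Export and the fate of pyruvate moved in both directions. Slc16a3, the lactate exporter MCT4, had signals of -1.94, -1.62 and -3.48 in KC, with 2 arrays well above background, and 3.35, 3.1 and 2.57 in KCS. It rose by 5.36 ± 0.51 (limma adjusted p = 0.000325), and on the percentile scale it was the only one of 7 lactate and pyruvate carrier genes called higher, against 2 with median scaling and 6 with spike-in scaling. Slc16a7, a high-affinity carrier of pyruvate and lactate, fell by 2.42, and the mitochondrial pyruvate carrier subunit Mpc2 by 0.70. Both falls were on the percentile scale and not with spike-in scaling. The Mpc2 call was lost without KCS replicate 2 (-0.64, adjusted p = 0.057), with median scaling (-0.35, adjusted p = 0.16) and within the second slide (adjusted p = 0.0623). Around pyruvate dehydrogenase, which feeds pyruvate to the mitochondrion, 2 of 11 genes rose and 4 fell. Its inhibitory kinases Pdk2 and Pdk1 fell by 2.59 and 1.72 and the phosphatase Pdp2 by 1.56, while the phosphatase Pdp1 rose by 1.33. These falls were on the percentile scale and not with spike-in scaling. The kinase Pdk3 rose by 0.82, a call lost without KC replicate 1 or 3 or KCS replicate 1 or 2 (largest adjusted p = 0.109), within the second slide (0.61, adjusted p = 0.18) and with normexp (0.14, adjusted p = 0.441).

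Regulators of phosphofructokinase were higher in 3 of 5 cases and lower in 1. Pfkfb4, which makes and breaks down its activator fructose 2,6-bisphosphate, had signals of 0.06, 0.17 and 0.41 in KC and 2.72, 2.76 and 2.16 in KCS and rose by 2.33 ± 0.23 (limma adjusted p = 0.00036). Tigar, a phosphatase that lowers the same activator and a p53 target, rose by 1.32 ± 0.26 (limma adjusted p = 0.00542). Pfkfb1 rose by 0.95, a call lost without KC replicate 1 or 2 or KCS replicate 2 or 3 (largest adjusted p = 0.0776) and within the second slide (adjusted p = 0.0578), and with normexp its value turned to -0.19 (adjusted p = 0.215). Pfkfb2 fell by 1.08 on the percentile scale and was higher by 1.80 with spike-in scaling. Averaging its probes gave -0.40, which was not called (adjusted p = 0.138).

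Gluconeogenesis, which runs against glycolysis, had 7 of its 8 tested genes lower on the percentile scale and 0 higher in limma, also at an unadjusted p below 0.05. With spike-in scaling 5 were called higher and 0 lower. Pck2, the mitochondrial carboxykinase, gave 4.82, 4.54 and 5.08 in KC and 2.08, 2.12 and 2.38 in KCS. It fell by 2.62, the islet phosphatase gene G6pc2 by 2.55 and pyruvate carboxylase (Pcx) by 2.52, each of them above 0 with spike-in scaling. In the tricarboxylic acid cycle 5 of 16 genes fell and 0 rose in limma (0 at an unadjusted p below 0.05). With spike-in scaling all 16 were higher. Over all rows 25.9% were higher and 34.4% lower, and with spike-in scaling 87.2% were higher. The lowest p-values of the cycle belonged to Sdhb, a subunit of succinate dehydrogenase (-1.50), Suclg1 (-1.15) and Idh3g (-0.96).

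Branches off glycolysis had genes on both sides. In the pentose phosphate pathway, which makes NADPH and ribose, 4 of 10 genes rose and 2 fell. Pgd rose by 2.46 ± 0.18 on the log2 scale, H6pd 4.01-fold and G6pdx, the first enzyme of the pathway, by 1.89 ± 0.25, so that both dehydrogenases of the cytosolic oxidative branch were among them. Pgls, the lactonase between these dehydrogenases, fell by 1.14 and Prps1 by 0.95, both on the percentile scale but not with spike-in scaling. In glycogen metabolism 4 of 10 rose and 2 fell. The phosphorylases Pygl (4.03 ± 0.35) and Pygb (1.35 ± 0.16) rose. The muscle phosphorylase Pygm (-2.45) and the synthase Gys1 (-1.48) fell on the percentile scale but not with spike-in scaling. Of 7 hexosamine genes Gfpt2, which starts that pathway, rose by 2.02 ± 0.28 and Gnpnat1 fell by 1.24 on the percentile scale, and without KCS replicate 3 the pathway had 2 lower genes.

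**Figure D4:**
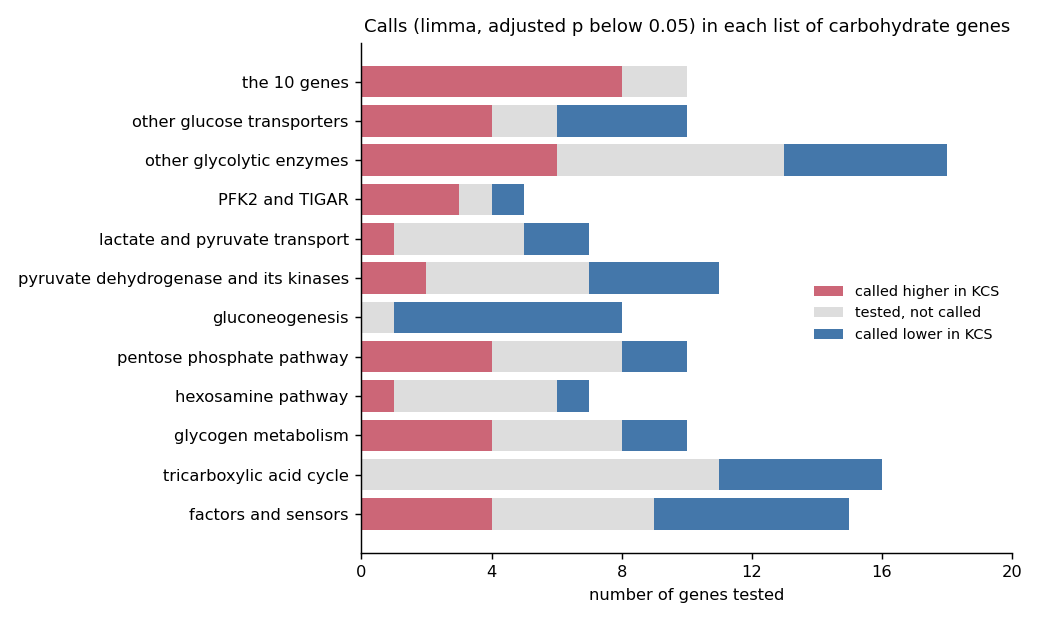
Number of tested genes (horizontal axis) called higher in KCS (red), not called (grey) or called lower (blue) by limma at an adjusted p below 0.05, for the 10 genes and 11 other lists. The 10 genes have 8 higher and 0 lower calls, while gluconeogenesis has 7 of 8 genes lower on the percentile scale, which with spike-in scaling become 0 lower. Over all rows 25.9% were higher and 34.4% lower.

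Among 15 transcription factors and sensors of glycolytic genes 4 rose and 6 fell. Hif1a, the oxygen-labile subunit of the hypoxia-inducible factor, had signals of 2.21, 2.37 and 2.14 in KC and 4.74, 4.57 and 4.16 in KCS. The groups were apart by more than 1 log2 unit and the rise was 2.25 ± 0.21 (limma adjusted p = 0.00031). Egln3, a prolyl hydroxylase that is itself a target of that factor, was not well above background in KC, and its direction depends on the background correction. On the percentile scale it was at least 1.96-fold higher in KCS, and with normexp it was called lower (-0.58, adjusted p = 0.00336). Vhl, which marks the hydroxylated subunit for degradation, rose by 1.12, a call lost within the second slide (1.03, adjusted p = 0.0556). The hydroxylase Egln2 (-1.20 on the log2 scale) and the glucose-sensing factor Mlxipl (a 2.01-fold fall) were lower on the percentile scale only. Arrdc4, a glucose-induced arrestin that limits uptake, fell by 2.93 ± 0.43 and was at -0.05 with spike-in scaling. Myc, named after its value was seen, gave 2.21, 1.29 and 2.06 in KC and 0.43, 0.91 and 0.73 in KCS and fell on the percentile scale (limma adjusted p = 0.0138). Within the second slide alone that call was lost (-0.85, adjusted p = 0.0914), and with spike-in scaling Myc was called higher (1.72, adjusted p = 0.0018).

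Markers of cell types moved with the same groups. All 11 acinar markers fell, also with spike-in scaling, and their summed linear signal, in units of the 75th percentile, was 23125 to 27141 in KC and 3.64, 16.7 and 1435 in the 3 KCS samples, of which replicate 3 was the highest. Cpa1, a digestive carboxypeptidase, gave 11.65, 11.43 and 11.61 in KC and -1.87, -0.61 and 7.53 in KCS and fell by 9.88 ± 2.32 (limma adjusted p = 0.0104). The difference was -12.81 without KCS replicate 3, -7.00 with spike-in scaling, and -8.06 within the second slide alone, where it did not pass (adjusted p = 0.06). The KCS cells, labelled acinar, thus held far less of the defining acinar RNA than the KC cells. All 10 fibroblast markers rose (sum 201 to 269 in KC and 1093 to 1344 in KCS) and 9 of 10 macrophage markers (60.4 to 86.3 against 368 to 482), with 0 of either list at background on all KC arrays. Col1a2, a fibrillar collagen chain, rose by 3.12 ± 0.17 and Aif1, a macrophage gene, by 5.38 ± 0.28. The summed signal of the 10 glycolysis genes was 254 to 352 in KC and 515 to 600 in KCS. The part of these cell types in the glycolysis values was not tested. Without KCS replicate 3, which had the highest acinar marker signal of the 3 KCS samples, 8 of the 10 genes were called and their median was 1.05. Setdb1 had 1 probe, with signals of -0.91, -1.05 and -0.32 in KC and -0.28, -0.44 and -0.55 in KCS (0.33 ± 0.24, limma adjusted p = 0.270), and since its place relative to the loxP-flanked part is not known here, it checks nothing about the genotype.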

How the data were processed

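RNA of 3 KC and 3 KCS samples was hybridised to Agilent arrays in 1 colour. Agilent Feature Extraction 12.0.3.1 produced the scanner files, per the file headers, and the processed signal deposited in them is a background-corrected intensity. The authors' deposited value table holds log2 values. Set against the scanner values, its 36110 non-control rows were log2 signals on the scale used here with each probe centred on its median (r = 0.999999 or above across probes), so scale, centring and direction are known. Its column medians were -0.01, 0.05 and 0.10 in KC and -0.05, -0.03 and -0.04 in KCS.

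From the processed signals, log2 values minus each array's 75th percentile were computed. Spots marked as outliers (88 to 140 per array) were left out, and 0 were saturated. A probe entered the test if it stood well above background on 3 or more of the 6 arrays. That level was passed by 26551 to 27237 probes on a KC array and 35367 to 35921 on a KCS array. Names came from RefSeq (GRCm38.p6) by accession, for 33767 probes, and the brightest probe stood for a gene. The files name another build, so coordinates are given for RefSeq promoters only.

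Groups were compared with limma 3.58.1 (lmFit and eBayes, two-sided, without covariates; R 4.3.3), and p-values were adjusted over 27104 rows by Benjamini-Hochberg. All adjusted p-values are limma's. SE comes from the fitted model, and SD from the 3 samples of a group. Arrays give no counting depth, and their number limits the precision. Alternatives were other scalings (median, quantile, spike-in controls), normexp (offset 50) on the median signals, the deposited table, other filters and probe rules, marked spots kept, other eBayes settings, array weights, slide and replicate blocks, the second slide alone, a threshold of 0.01, and each array left out. Normexp on median signals and the dimmest probe were added after the data were seen. The fit was tested on simulated data. Tables and figures used Python 3.11.15, pandas 2.3.3, numpy 2.4.6 and matplotlib 3.10.9.

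The members and lists were chosen with earlier results of these data known. Named besides the 10 genes were, from each other list, up to 3 called genes per direction with the smallest p, all called glycolytic and PFK2 genes, Setdb1, 1 marker each of acinar cells, fibroblasts and macrophages, and the 5 genes most like the mean of the 10. The oncogenic allele carried by both groups and some genes that this rule selects are not reported here, although list counts include them.

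Same-numbered samples did not deviate together in every pair (r of deviations from the group means 0.330, 0.043 and 0.143 over rows), so replicate numbers were not taken as pairs.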

Additional observations from a re-analysis of the deposited data

How the results depend on the processing

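Of the 10 genes, 6 to 10 were called higher under the alternatives tried (10 with spike-in scaling, 9 with median scaling, quantile normalization or normexp, 7 within the second slide alone or without KCS replicate 1, 6 at a threshold of 0.01), and 0 were lower in any. With 1 array left out 7 to 8 were called, with a median of 0.91 to 1.15. Against 1.02, their median log2 fold change was 1.69 with the dimmest probe, 1.38 with the mean of probes, 1.38 with median scaling, 1.71 with normexp, 1.80 with quantile normalization and 3.90 with spike-in scaling. In the other lists, against 29 higher and 39 lower genes, 53 were higher with normexp, and 100 were higher and 3 lower with spike-in scaling. Without the filter on dim probes 31885 of 46300 rows were called, against 16345 of 27104. With the replicate number as a block 16447 rows and 8 of the 10 genes were called, and of the named genes Eno3 lost its call. With spike-in scaling the sign turned for Egln2 (1.68), Eno3 (2.06), G6pc2 (0.33), Gapdh (1.40), Gnpnat1 (1.64), Gys1 (1.40), Idh3g (1.92), Mlxipl (1.87), Mpc2 (2.18), Myc (1.72), Pck2 (0.26), Pcx (0.36), Pdk1 (1.16), Pdk2 (0.29), Pdp2 (1.32), Pfkfb2 (1.80), Pgam2 (0.63), Pgls (1.73), Prps1 (1.93), Pygm (0.43), Sdhb (1.38), Slc16a7 (0.46), Slc2a5 (0.78), Slc2a9 (0.67) and Suclg1 (1.73). With normexp it turned for Egln3 (-0.58), Pfkfb1 (-0.19) and Slc2a10 (-0.060). Gapdh turned with the dimmest probe (2.52), the mean of probes (1.54) and quantile normalization (2.33), and Hk2 without KC replicate 3 (-0.031, the values with 1 array left out running up to 0.52). Calls were also lost for Pdp2 (-0.67) and Pgls (-0.22) with quantile normalization and for Prps1 (-0.33) and Mlxipl (-0.38) with normexp. With the dimmest probe they were lost for Arrdc4 (-0.25), Idh3g (-0.18) and Mlxipl (-0.15). Quantile normalization and normexp chose the brightest probe of a gene anew, so with them the probe may have changed too. Except where the alternative itself is another probe, the cause was not tested. Normexp on mean signals was not run, because the files used here hold median signals. Signal near background limits Slc2a3 and Egln3 to bounds.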

Other observations

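The 10 genes had similar profiles over the 6 arrays, with 2 exceptions. The correlation of each with the mean of the other 9 ran from 0.943 (Ldha) to 0.997 (Pfkp), and was 0.825 for Aldoa and 0.355 for Hk2. The 6 arrays share the split into 2 groups, and these correlations are a description without a test. Outside the set, the genes most like its mean were Cyba, a subunit of the NADPH oxidase of phagocytes (r = 0.999), the lactate exporter Slc16a3 (0.999), Nfkbie, an inhibitor of NF-kappa-B (0.999), Efna5, an ephrin (0.999), and Pcdh7, a protocadherin (0.998). Of 16253 genes compared, 2379 had an r over 0.95. Cyba had signals of 3.96, 4.21 and 3.22 in KC and 6.98, 6.52 and 6.37 in KCS, and KC replicate 3 was the lowest array for each of the 5.

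Marker lists of further cell types split. On the percentile scale 7 of 8 islet markers fell and 0 rose, while with spike-in scaling 0 were lower and 3 higher. On the percentile scale 4 of 8 ductal markers rose and 1 fell, 7 of 8 endothelial markers rose and 0 fell, and 4 of 8 cycling-cell markers rose and 0 fell. Neutrophil markers were higher in 5 of 8 cases and lower in 1. T and NK cell markers were higher in 3 of 6 and lower in 3. With spike-in scaling 0 of either list were lower. B and plasma cell and erythroid markers were higher in 2 of 5 each. Well above background on no KC array were 3 neutrophil, 1 T and NK cell, 4 B and plasma cell and 1 cycling-cell marker. These passed the filter only through KCS, and the called B and plasma cell markers were among them. With dim genes at their bound the median went from 2.94 to 2.14 for neutrophil and from 2.21 to 0.63 for B and plasma cell markers. For T and NK cell markers it went from 0.19 to -0.12. The counts are limma's at an adjusted p below 0.05, and the counts of lower markers at an unadjusted p were 0 for the endothelial and cycling lists. They are to be read against all rows, of which 25.9% were higher and 34.4% lower. With spike-in scaling 87.2% of all rows were higher and 2.91% lower. The summed signal of ductal markers was 54.5 to 73.8 in KC and 267 to 353 in KCS. For neutrophil markers the sum was 147 to 245 in KC and lower in KCS on the percentile scale, 97.6 to 113. B and plasma cell markers summed to 0.21 to 0.32 in KC and 0.91 to 5.28 in KCS. The summed signal of T and NK cell markers was 10.6 to 20.9 in KC and 3.75 to 10.7 in KCS, with overlap. That of cycling-cell markers was 10.3 to 19.3 in KC and 17.6 to 29.7 in KCS, so it overlapped between the groups.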
